A study of Felis catus with 12 samples.

Results

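Haemostasis genes of the vessel wall were followed in left ventricular tissue of 12 cats, because arterial thromboembolism (ATE) was one of the outcomes recorded in the cohort. The 9 genes were taken by name from a table of 30785 genes: VWF, F8, F3 and F13A1 on the procoagulant side, THBD, TFPI, PROS1 and ENTPD1 on the side that limits clotting, and PLAT for fibrinolysis. All 9 passed the filter on low values that left 8715 genes for testing. The tissue was left ventricle sampled after death, and its RNA was read directly on Oxford Nanopore flow cells, without conversion to cDNA. Each cat gave 1 library, and 4 libraries shared each of 3 flow cells, called A, B and C here.

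The sample labels give the cat number and the flow cell, and the outcome of each cat was looked up by that number in the cohort table of the study. By that table, 6 libraries came from cats with congestive heart failure (HF; cats 11, 15, 30, 31, 35 and 37), 3 from cats with ATE (10, 23 and 38) and 1 from a cat whose death had no known cardiac cause (36). Most were domestic shorthair cats, with a Birman (11) and Maine Coons (15 and 35) in the HF group and no pedigree cat among those with ATE. The groups overlapped clinically, since cat 10 had both heart failure and ATE and cat 23 had an enlarged heart. The 2 libraries labelled as cats 22 and 29 are not in the study's list of sequenced cats, in which cats 16 and 25 stand instead. They were therefore left without an outcome and out of the comparisons of outcome, fibrosis and age. The cohort table does list a cat 22, with ATE, and entering that library as ATE was tried as an alternative. It also lists a cat 29, without a known cardiac death, an outcome that was not entered in any fit. Both unassigned libraries entered the comparison of flow cells and all values over 12 libraries. Each flow cell carried exactly 1 library assigned to ATE, and flow cell C would carry 2 if the library labelled as cat 22 came from that cat. There was no healthy control group, and breed, age and treatment could not be separated from outcome with these numbers.

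Haemostasis is a balance between clot formation and its restraint, and much of it is set at the vessel wall. Von Willebrand factor tethers platelets and carries factor VIII, tissue factor starts the coagulation cascade when blood meets cells outside the endothelium, and factor XIII cross-links the fibrin that results. Endothelial cells counter this with thrombomodulin and protein S, which act in the protein C pathway, with tissue factor pathway inhibitor, with an ecto-enzyme that removes platelet-activating ADP, and with tissue plasminogen activator, which starts the removal of fibrin. In cats, arterial thromboembolism mostly follows clot formation in an enlarged left atrium, a chamber that was not sampled here.

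Values are given as normalised reads, that is reads on the gene divided by 1 size factor per library. The libraries held 789257 to 2263110 reads on genes, 15753626 in all. Cardiomyocyte markers made up 10.2% to 15.5% of reads on genes, whereas the 14 endothelial markers together made up 0.0307% to 0.0867%. The endothelial markers summed to 560 to 993 normalised reads in ATE and 558 to 947 in congestive HF. In bulk tissue, fewer cells of a type and less RNA per cell cannot be told apart. Of the plasma factors made mainly by the liver, F7, F9, F12, F13B and FGA had 0 reads in all 12 libraries, which allows a level of up to 0.190 counts per 1e6 pooled reads, while F2 had 63 reads, F5 65 and FGB 25. No gene of the plasma factor list had more than 25 reads in any library.

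**Figure D1:**
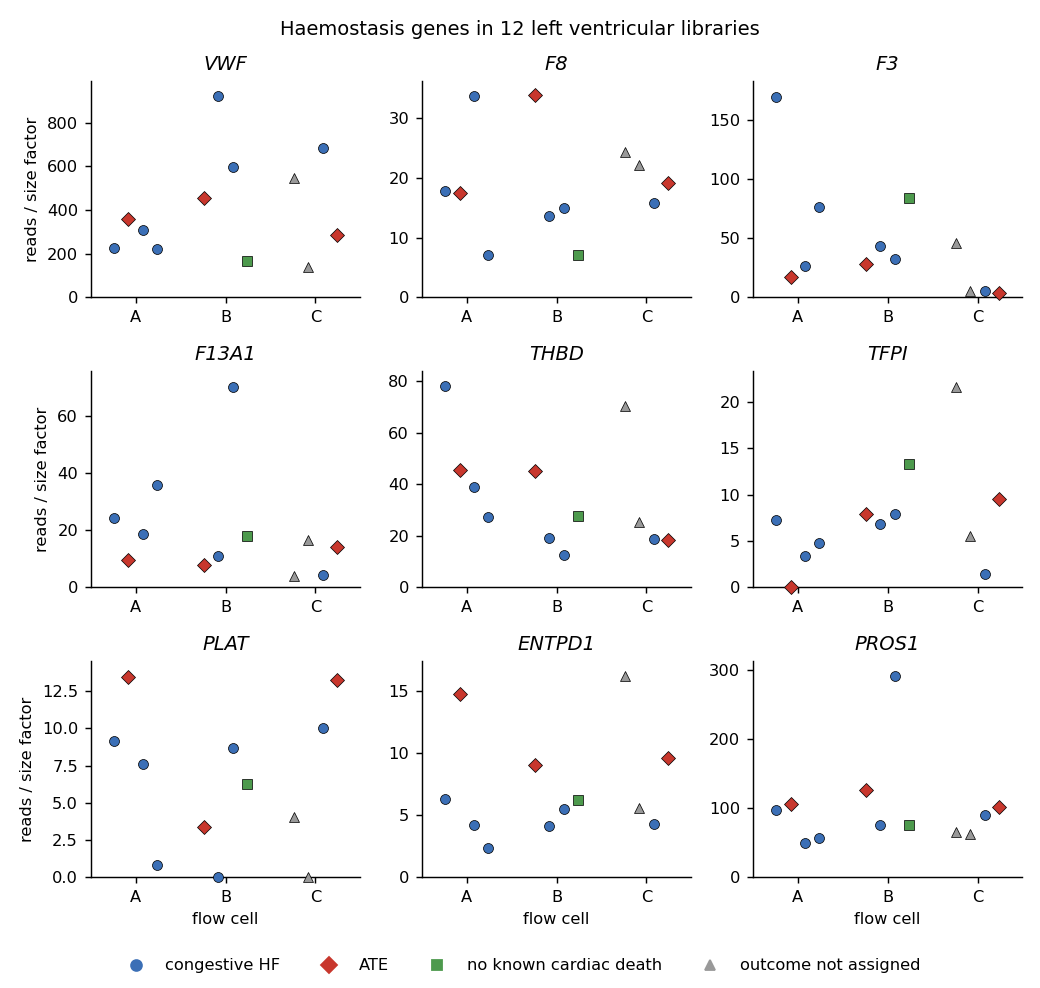
Normalised reads (reads divided by the size factor of the library, linear axis from 0) of the 9 genes in 12 libraries, 1 point per cat, arranged by flow cell and marked by outcome. ENTPD1 is the only panel in which all 3 ATE cats (9.02 to 14.8) lie above all 6 congestive HF cats (2.39 to 6.27), and single HF cats stand far above the rest for F3 (cat 11, 169) and PROS1 (cat 35, 291).

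VWF, the platelet-tethering protein stored in endothelial cells, was among the better sampled genes, with 124 to 756 reads per library. Its normalised reads were 360 in ATE cat 23, 455 in ATE cat 10 and 288 in ATE cat 38. The 6 HF cats ran from 224 (cat 31) through a median of 453 to 923 (cat 15). The ATE values thus lay inside the range of HF. Cat 36, of the last group, stood lower at 165, and the unassigned libraries were at 545 (cat 22) and 137 (cat 29). Over all 12 libraries the coefficient of variation was 58.1%, against 4.99% from counting error by itself. Within flow cell A the ATE cat was above all 3 HF cats, and within flow cells B and C it was below all of them. The difference between ATE and HF was -0.24 on the log2(value + 1) scale (SE 0.44, 95% confidence interval -1.18 to 0.70, limma adjusted p = 0.985).

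F8 encodes the cofactor that VWF carries in plasma, and it was sparse, with 8 to 40 reads per library. Its normalised reads were 17.5, 33.8 and 19.1 in ATE cats 23, 10 and 38. In HF they ran from 7.18 (cat 31) through a median of 15.4 to 33.7 (cat 30), so the highest values of both groups were almost equal. Cat 36 was lowest of all at 7.12. The ATE minus HF difference was 0.50 (SE 0.43), with an adjusted p of 0.960 by limma.

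F3, which encodes tissue factor, varied most of the 9 genes, 45.9-fold from the lowest to the highest library. Its normalised reads were 17.5, 28.2 and 3.68 in ATE cats 23, 10 and 38. In HF they ran from 5.72 (cat 37) through a median of 37.9 to 169 (cat 11, 350 reads). Cat 36 was high at 83.7 and cat 22 at 45.9, while cat 29 was at 5.54. Across flow cells the groups overlapped, but on each flow cell the ATE cat had less F3 than every HF cat beside it (17.5 against 26.1 to 169, 28.2 against 32.3 to 43.6, and 3.68 against 5.72). In flow cell C these were 5 reads and 4 reads before normalisation, so that step cannot be told from counting error. The unassigned library of cat 22 on the same flow cell, at 45.9, was above HF cat 37, so the order would not hold there if it was an ATE cat. How many of the 8715 tested genes kept such an order on each flow cell was not counted. The order can therefore not be read as particular to F3. The difference between ATE and HF was -1.52 (SE 0.82, 95% confidence interval -3.28 to 0.24, limma adjusted p = 0.960), a 2.87-fold lower geometric mean of value + 1 in ATE. With flow cell as a covariate it was -1.04, and leaving out each cat gave -2.07 (without cat 10) to -0.75 (without cat 38).

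F13A1, the catalytic subunit of the fibrin cross-linking factor, is known to be made by macrophages and by the megakaryocytes that give rise to platelets. Its normalised reads were 9.40, 7.89 and 13.97 in ATE cats 23, 10 and 38. HF ran from 4.29 (cat 37) through a median of 21.3 to 70.1 (cat 35), and cats 11, 30 and 31 on flow cell A, at 24.1, 18.5 and 35.9, were all above the ATE cat beside them. On flow cell C the order was the other way round. The ATE minus HF difference was -0.90 (SE 0.64, limma adjusted p = 0.960).

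THBD encodes thrombomodulin, the endothelial receptor that turns thrombin into an activator of protein C. Its normalised reads were 45.7, 45.1 and 18.4 in ATE cats 23, 10 and 38, against 12.6 (cat 35) to 78.2 (cat 11) with a median of 23.1 in HF. An ATE cat was therefore at 18.4 next to 18.6 in HF cat 37 on the same flow cell, and the groups overlapped over most of their range. The unassigned library of cat 22 was high at 70.2. The difference was 0.31 (SE 0.51, adjusted p = 0.985 by limma).

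PROS1, protein S, is the vitamin K-dependent cofactor of activated protein C. Its normalised reads were close together in ATE, at 106, 126 and 101 for cats 23, 10 and 38. Of the 6 HF cats, 5 were lower, from 48.8 (cat 30) to 96.5 (cat 11), and cat 35 stood far above every other library at 291 (370 reads). Cats 36, 22 and 29 were at 75.7, 64.8 and 62.1. With cat 35 in the group, the difference between ATE and HF was 0.30 (SE 0.45, limma adjusted p = 0.985), and the highest value that leaving out any 1 cat gave was 0.63.

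TFPI, the inhibitor of tissue factor and factor Xa, had 0 to 16 reads per library. It was listed at 0 in ATE cat 23, a library in which 3 reads correspond to 4.03 normalised reads, and at 7.89 and 9.56 in ATE cats 10 and 38. HF ran from 1.43 (cat 37, 1 read) through a median of 5.80 to 7.88 (cat 35). The highest value was 21.6, in cat 22. The ATE minus HF difference was -0.33 (SE 0.79, limma adjusted p = 0.985), and its sign depended on the test: edgeR on the reads gave 0.18.

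PLAT, tissue plasminogen activator, had 0 to 19 reads per library. Its normalised reads were 13.4, 3.38 and 13.2 in ATE cats 23, 10 and 38. HF ran from 0 (cat 15) through a median of 8.12 to 10.0 (cat 37), and the unassigned cat 29 was also listed at 0. The highest values of the series were thus the ATE cats 23 and 38, but the remaining ATE cat fell inside the HF range. The difference was 0.93 (SE 0.85, adjusted p = 0.963 by limma), and at this depth a change of that size was not distinguishable from the spread.

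ENTPD1 encodes an ecto-enzyme of endothelial and immune cells that degrades extracellular ATP and ADP and so limits platelet activation. It was the only one of the 9 genes whose ATE and HF values did not overlap. Its normalised reads were 14.8 in ATE cat 23, 9.02 in ATE cat 10 and 9.56 in ATE cat 38. The HF cats ran from 2.39 (cat 31) through a median of 4.25 to 6.27 (cat 11). Cat 36 lay in the HF range at 6.23, and of the unassigned libraries cat 22 had the highest value of the series, 16.2, and cat 29 had 5.54.

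These values rest on few molecules. The ATE libraries held 11, 8 and 13 ENTPD1 reads and the HF libraries 3 to 13, so that the 95% counting intervals of single libraries overlapped between the groups (3.89 to 17.8 for ATE cat 10 and 3.34 to 10.7 for HF cat 11). These intervals cover counting error only. The gene passed the filter with exactly 3 libraries of known outcome at 10 or more reads, of which cats 23 and 38 were ATE cats, so passing depended in part on the group where it was high. Because the groups did not overlap, the ATE cat had to be above the HF cats on each flow cell, so this order adds nothing. The ATE value less the mean of the HF cats beside it was 1.64, 0.80 and 0.997 on the log2(value + 1) scale for A, B and C. In B this step rests on 8 ATE reads against 3 and 7 HF reads, and in C on 13 against 3.

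The limma difference for ENTPD1 was 1.16 (SE 0.48, 95% confidence interval 0.12 to 2.20), a 2.23-fold higher geometric mean of value + 1 in ATE. Its unadjusted p was 0.0313 and its adjusted p 0.960, so it was not called. An exact permutation test over the cats (two-sided, 3 ATE against 6 HF) gave p = 0.0238 for ENTPD1. For the others of the 9 genes it gave p from 0.190 (F3) to 0.738 (TFPI), without adjustment over the 9. Groups that do not overlap must give 0.0238, the smallest p that the 84 possible splits allow. The permutation p thus adds nothing to the lack of overlap. No overlap of this kind was found for 190 of 8715 genes, or 2.18%, and for 1 of the 9 haemostasis genes. Leaving out each cat in turn gave differences of 0.95 to 1.28. Of the cell type markers, 7 also had an unadjusted p under 0.05 by limma, each with an adjusted p of 0.960. These were APOA1 (2.37) and SERPINA1 (-2.23) of hepatocytes, MRC1 (-1.58), S100A9 (-2.39) and S100A8 (-1.95) of macrophages and monocytes, RGS5 (-1.01) of pericytes and LUM (1.36) of fibroblasts. The 5 hepatocyte markers in the table summed to 252 to 441 in ATE and 40.1 to 418 in HF. The part of these markers in the ENTPD1 difference was not tested.

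**Figure D2:**
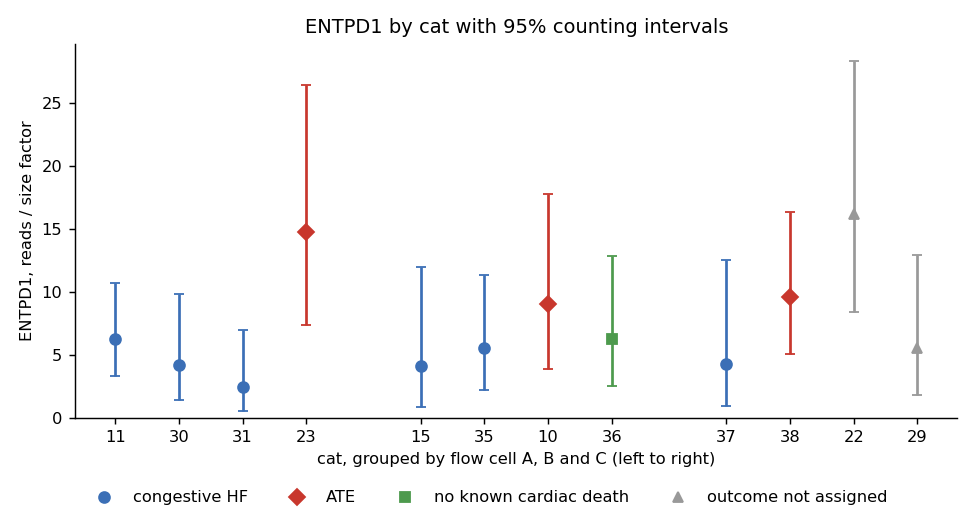
ENTPD1 in normalised reads (linear axis from 0) for each of the 12 cats, ordered by flow cell and then by outcome, with exact Poisson 95% intervals that cover counting error only. The ATE point is above the HF points on every flow cell, which follows from the lack of overlap between the groups. The intervals of single cats are wide and overlap, as for ATE cat 10 (3.89 to 17.8).

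Between ATE and congestive HF as a whole, limma called 0 of the 9 haemostasis genes and 0 of 8715 genes (0%) at an adjusted p under 0.05. At an unadjusted p under 0.05 it found 384 genes, among them ENTPD1 alone of the 9. On the recovered reads, edgeR called 0 genes (398 unadjusted) and DESeq2 called 1 (427 unadjusted), KERA, which belongs to none of the lists used here. Of the 9 differences 5 were positive and 4 negative, with a median of 0.30 beside 0.00 over all tested genes. By role, 3 of the 4 procoagulant genes were on the lower side in ATE and 3 of the 4 anticoagulant genes on the higher side, a description of signs in which no single gene passed the test. The confidence intervals of 8 genes included 0, and some were wide: for PLAT the interval ran from -0.89 to 2.76 and for F3 from -3.28 to 0.24.

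**Figure D3:**
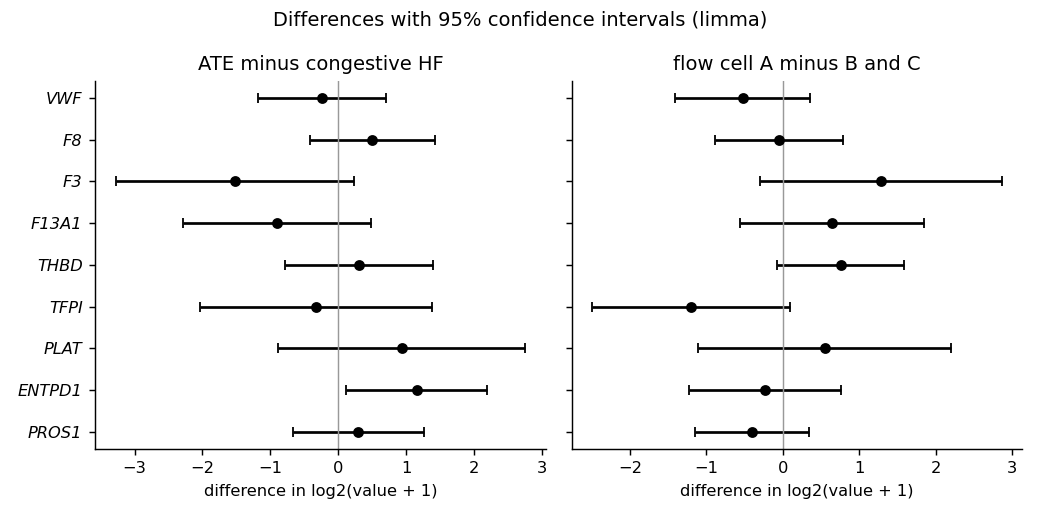
Differences in log2(value + 1) with 95% confidence intervals from limma for the 9 genes, between 3 ATE and 6 congestive HF cats (left) and between 4 libraries of flow cell A and the 8 of flow cells B and C (right). On the left, only the ENTPD1 interval (0.12 to 2.20) lies clear of 0, and on the right none does.

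Of the other tested genes of haemostasis, 0 were called in this comparison. Of the 5 listed and tested genes of plasminogen activation besides PLAT, all 5 were on the lower side in ATE, with a median of -0.71. SERPINB2, plasminogen activator inhibitor type 2, was at 177 to 2189 normalised reads in ATE and 269 to 12160 in HF, a difference of -1.93 (SE 1.13, adjusted p = 0.960 by limma). PLAU, urokinase, was at 11.0 to 17.5 against 10.9 to 75.8, a difference of -0.71. Its receptor PLAUR was at 2.69 to 9.56 against 1.43 to 57.4, a difference of -0.79. In each of these 3 genes the HF range reached well above that of ATE, and its low end overlapped it. The HF cats were spread 3, 2 and 1 over flow cells A, B and C, with 1 ATE cat on each. With flow cell as a covariate the differences were smaller, at -1.44 (SERPINB2), -0.55 (PLAU) and -0.56 (PLAUR).

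Of 4 other tested anticoagulant genes, GAS6, a vitamin K-dependent relative of protein S, was at 454 to 556 normalised reads in ATE and 54.1 to 569 in HF, a difference of 1.15 (SE 0.59, limma adjusted p = 0.960). TFPI2, a relative of TFPI, was at 33.8 to 125 against 22.8 to 60.8, a difference of 0.65. ANXA5, a phospholipid-binding protein, was at 193 to 423 against 168 to 1477, a difference of -0.81. With flow cell as a covariate the differences were 0.89 (GAS6), 0.81 (TFPI2) and -0.58 (ANXA5). Of the 4 tested thrombin receptor and platelet-active enzyme genes, PTGS1, the cyclo-oxygenase that feeds prostacyclin and thromboxane synthesis, was at 19.2 to 26.9 in ATE and 5.51 to 34.5 in HF (difference 1.04). NOS3, endothelial nitric oxide synthase, was at 2.69 to 23.5 against 1.36 to 21.2 (difference 0.06), and F2RL2, a thrombin receptor, at 5.15 to 9.02 against 4.79 to 15.2 (difference -0.51).

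F5, the only plasma factor with enough reads to be tested, was at 0 to 13.4 against 2.41 to 19.9 (difference -1.06). KLF4 and KLF2, flow-responsive transcription factors of the endothelium, were at 43.0 to 61.0 against 19.7 to 49.7 and at 62.5 to 107 against 34.3 to 89.2, differences of 0.67 and 0.53. VKORC1, the enzyme that recycles vitamin K, was at 33.8 to 36.1 against 27.2 to 62.3 (difference -0.43). Over the 10 tested genes of factor processing and clearance, 6 differences were positive and 4 negative. None of the genes named here passed the limma test, with adjusted p-values of 0.960 to 0.997.

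Levels were also set against the endothelial markers of the same library. VWF came to 18.3 reads per 100 endothelial marker reads in cat 29 and 99.9 in cat 15, with 62.8, 45.9 and 51.3 in ATE cats 23, 10 and 38 and 24.1 to 99.9 in HF. The ATE values again lay inside the range of HF, with a log2 difference of -0.08. For ENTPD1 the ratio was 2.58, 0.908 and 1.71 in the ATE cats and 0.429 to 0.826 in HF. The groups did not overlap on this scale, with a log2 difference of 1.41. The ratio uses the same ENTPD1 reads as before and is not a separate result. The closest libraries were ATE cat 10 (8 ENTPD1 and 881 endothelial marker reads) and HF cat 35 (7 and 847). That gap cannot be told from counting error. The spread of VWF between libraries was little smaller per endothelial marker read (SD of log2 0.78) than in normalised reads (0.85). These ratios were not tested.

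Cat 15, which had the highest VWF, also had the highest sums of platelet and erythroid markers, 43.6 and 59.9 normalised reads, where the other 11 libraries held 0 to 12.6 and 0 to 19.1. GP1BA, a defining platelet gene, had 0 reads in all libraries. PF4, PPBP and GP6 of the platelet list and HBA, HBA1 and HBB of the erythroid list had no entry by those names. The sums rest on 4 platelet and 2 erythroid genes with reads. The part of platelets and erythroid cells in the VWF value of cat 15 was not tested. Without cat 15, the ATE minus HF difference of VWF was -0.016 in place of -0.24 (limma adjusted p = 0.994).

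F13A1 correlated positively with all 12 listed macrophage and monocyte markers over the 12 libraries, with r from 0.254 (CD68) to 0.929 (CD163) and a median of 0.768. Of all tested genes, CD163, a scavenger receptor of tissue macrophages, was most like it, with Pearson's r = 0.929 between log2(value + 1) over 12 libraries, and CASP4 was next with r = 0.928. CD163 was at 388 in cat 35, 122 in cat 11 and 107 in cat 31, the 3 libraries with the highest F13A1, and at 9.45 in cat 22, the library with the lowest. With each flow cell centred on its mean, r between F13A1 and CD163 was 0.907. The 12 listed markers summed to 277 to 339 normalised reads in ATE and 260 to 2604 in HF, and 10 of the 11 that were tested were on the lower side in ATE, with a median of -0.88 and 0 called. Their part in the F13A1 difference was not tested. These correlations are descriptions over 12 libraries that share flow cells and differ in depth.

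**Figure D4:**
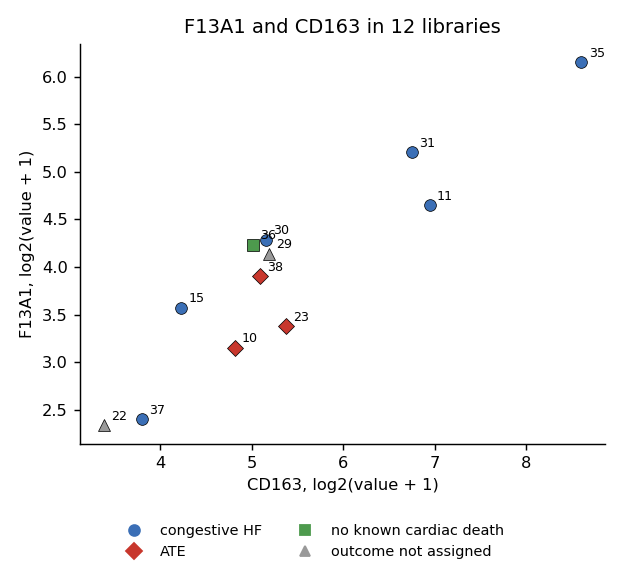
F13A1 against CD163, both as log2(value + 1), with 1 point per library labelled by cat number and marked by outcome. The libraries line up from cats 22 and 37 at the lower left to cat 35 at the upper right, with Pearson's r = 0.929, and the 3 ATE cats sit in the lower and middle part.

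For the other genes, the most similar genes by the same measure were as follows. VWF was closest to XK (r = 0.917) and LOC102902102 (0.881), and F8 to PATZ1 (0.891) and KLF2 (0.885), of which KLF2 is an endothelial transcription factor. F3 was closest to PCNP (0.893) and TTC27 (0.890). THBD was closest to TMEM100 (0.924), a membrane protein of arterial endothelium, and CEBPG (0.917). TFPI was closest to LOC101097968 (0.876) and PAXBP1 (0.866), PLAT to USP47 (0.847) and CACNA2D1 (0.832), ENTPD1 to PTPRR (0.857) and HDAC9 (0.856), and PROS1 to CAMP (0.840), a neutrophil granule peptide, and DDB1 (0.824). Over the 36 pairs of haemostasis genes, r ran from -0.49 (F13A1 with ENTPD1) to 0.48 (THBD with ENTPD1), with a median of 0.07. With each flow cell centred on its mean, r ran from -0.56 (F13A1 with THBD) to 0.75 (F3 with TFPI), with 0.63 for THBD with ENTPD1, 0.60 for PLAT with PROS1 and 0.58 for F3 with THBD, and a median of 0.05. On flow cell C the unassigned library of cat 22 was the highest for F3 (45.9), TFPI (21.6), THBD (70.2) and ENTPD1 (16.2). The centred r without that library was not computed, and TFPI had only 0 to 16 reads per library. Each similar gene was picked as the closest of 8715 over 12 libraries, and several rest on few reads, such as PTPRR with 1 to 16 per library.

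The flow cell comparison asked how far the sequencing run moved these genes. Between flow cell A and flow cells B and C, limma called 446 of 8715 genes (5.12%), 141 higher and 305 lower in A, and 0 of the 9 haemostasis genes, of which none reached an unadjusted p under 0.05, where 1863 of all tested genes did. On the recovered reads, edgeR called 435 genes and DESeq2 829, again with 0 of the 9. Groups did not overlap for 369 genes (4.23%), and for 0 of the 9. The largest differences were 1.28 for F3 (SE 0.75), -1.20 for TFPI (SE 0.61) and 0.76 for THBD (SE 0.39), with limma adjusted p-values of 0.336, 0.270 and 0.277. For the other 6 genes they ran from -0.53 (VWF) to 0.64 (F13A1). The cats differ between flow cells, so flow cell and cat cannot be told apart, and the count of called genes itself fell to 51 without cat 11, to 129 without cat 31 and to 295 without cat 15.

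Other genes of plasminogen activation differed by flow cell where PLAT did not pass the test. Of the 5 listed and tested, 3 were called higher in A and 0 lower. SERPINB2 was at 12160, 2189, 2157 and 8327 normalised reads in cats 11, 23, 30 and 31 of flow cell A and at 177 to 1164 elsewhere, with no overlap (3.45, SE 0.53, adjusted p = 0.0030 by limma).

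ANXA2 and S100A10, which form a cell-surface complex that binds plasminogen, were higher in A by 1.57 (limma adjusted p = 0.0159) and 1.51 (0.0407). Of the anticoagulant genes, ANXA5 was higher by 1.49 (limma adjusted p = 0.0205) and GAS6 was lower, with a difference of -1.42 (0.0411), and among the processing genes LMAN1, a transport receptor for factors V and VIII, was higher by 0.84 (0.0369). Of 10 tested cardiomyocyte markers, 7 differences were negative and 3 positive, and TNNT2, TNNI3, MB and MYL3 were called lower in A, by differences of -1.64 to -1.05. Of 7 fibroblast markers, 6 differences were positive and 1 negative, with COL1A1 and COL3A1 called higher, and all 6 tested smooth muscle and pericyte markers were positive, with TAGLN and CNN1 called higher. The part of these marker shifts in the haemostasis genes of flow cell A was not tested. SERPINB2 belongs to a gene family with many similar members, and reads could be split between them in counting.

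**Figure D5:**
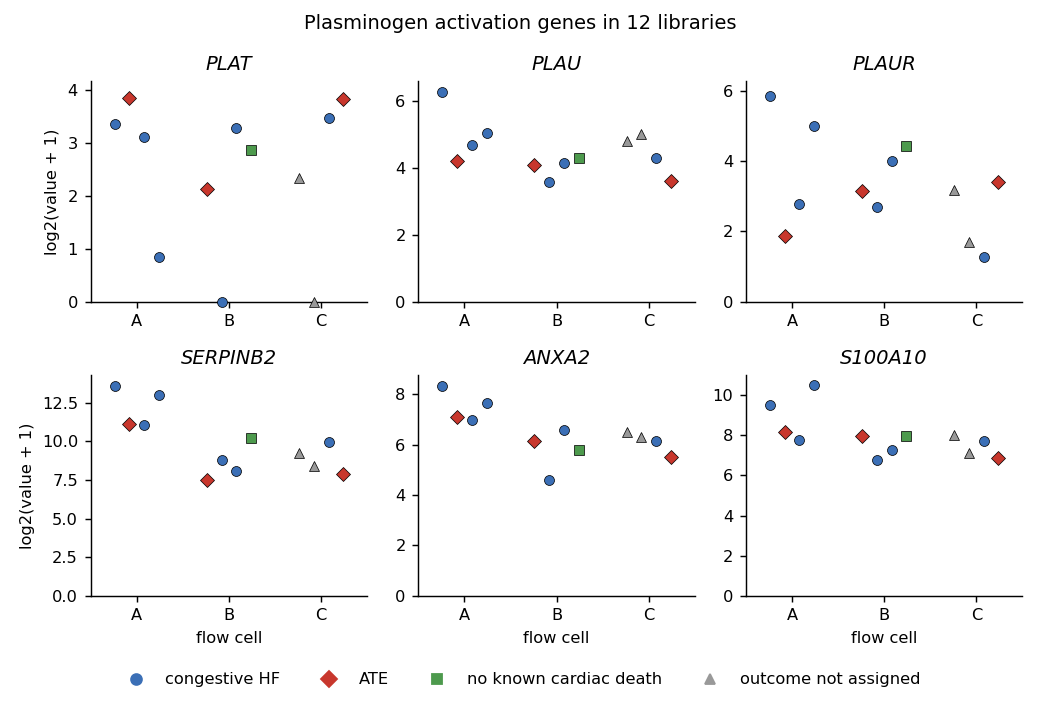
Genes of plasminogen activation as log2(value + 1) (axes from 0) in 12 libraries, 1 point per cat, by flow cell and marked by outcome. SERPINB2 in flow cell A lies above all other libraries (2157 to 12160 normalised reads against 177 to 1164), and the PLAT values of the 3 flow cells overlap.

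Levels were then set against myocardial fibrosis (8 cats) and age (9 cats), which makes 18 relations for the 9 genes, with values of both traits taken from the cohort table. For both traits limma called 0 of 8715 genes (0%) and 0 of the 9 (230 and 401 genes at an unadjusted p under 0.05). Spearman's rho with an exact permutation p also called 0 genes (247 and 415 unadjusted). Of the 9 genes, F13A1 had the smallest unadjusted limma p for fibrosis. Its slope was -0.18 on the log2(value + 1) scale per percentage point (SE 0.08, limma unadjusted p = 0.0363, adjusted p = 0.9997). Exact permutation gave p = 0.0805 for Pearson's r of -0.647 and p = 0.115 for a rho of -0.619 (adjusted p = 1 over all genes), and without cats 23 and 15, which lie farthest from the median of fibrosis, r was -0.617. Within flow cells r was -0.692 over 7 cats (permutation p = 0.132). Leaving out each cat gave slopes of -0.20 to -0.09, the latter without cat 35. Of the 11 tested macrophage and monocyte markers, 10 slopes on fibrosis were negative, with a median of -0.16 and 4 at an unadjusted limma p under 0.05 (0 called), and their part in the F13A1 slope was not tested.

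For age, VWF had the smallest unadjusted p of the 9 genes, and it did not pass after adjustment. The slope was 0.09 per year (SE 0.04, limma adjusted p = 0.955), and 0.06 without cat 15 and 0.16 without cat 30. Of the 14 endothelial markers, 12 slopes on age were positive, with a median of 0.03 and 0 called. Exact permutation gave p = 0.0819 for Pearson's r of 0.613 and p = 0.0172 for a rho of 0.783, which became 0.851 after adjustment over all genes. Without the 2 cats farthest from the median age, r was 0.784 or 0.819 depending on which of 2 equally distant cats was dropped, and within flow cells it was 0.758 (permutation p = 0.0243). Library depth moved with age in the same 9 cats (reads per library, r = -0.716, exact permutation p = 0.0308, rho = -0.700, exact permutation p = 0.0433), and the part of depth and of the endothelial markers in the VWF relation was not tested. For the other genes rho with age ran from -0.617 (TFPI) to 0.433 (F8), and rho with fibrosis from -0.619 (F13A1) to 0.619 (THBD).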

How the data were processed

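RNA from left ventricular tissue of 12 cats was sequenced directly on Nanopore flow cells. Base calling was by Guppy, and after a quality filter the authors aligned the reads to felCat9 (Minimap2) and assigned them to genes (featureCounts). Whether counting used strand is not stated in the sources used here, and these sources differ on the library kit. The deposited signal values are reads per gene divided by 1 size factor for each library. All of them (100%) are a whole number of reads times the value of 1 read (tolerance 1e-06), so the whole reads could be recovered.

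The 8715 genes tested had 10 or more reads in 3 or more of the 10 libraries whose outcome was known. limma with an intensity trend was fitted to log2(value + 1) over all of them, with Benjamini-Hochberg adjusted p-values and a threshold of 0.05. The pseudocount makes fold changes of low genes smaller. ATE was compared with congestive HF, flow cell A with B and C, and slopes were fitted on fibrosis and age. Exact two-sided permutation tests were run for single genes. Each group holds separate cats with 1 library each.

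The members and gene lists were chosen with earlier results of these data known. Named are the 9 members, genes of the other lists that passed a test or had up to 3 of the smallest p-values of their list for ATE against HF, and the 2 genes most correlated with each member. Alternatives were TMM-scaled log2 CPM, edgeR and DESeq2 on the reads, a pseudocount of 0.5, no filter on low values, a flow cell covariate, leaving out each cat, library 22 entered as ATE, and, added after seeing the data, both unassigned libraries left out. The self-test on simulated data was passed. Its limma part used log2 changes of 3, so it does not cover differences of the size reported for the 9 members. One gene of fibrinolysis is not reported here and was taken off its list. No coordinates or sequences are given, because the gene table at hand is of another assembly than felCat9. Fits used limma 3.58.1, DESeq2 1.42.0 and edgeR 4.0.16 in R 4.3.3, and permutations used scipy 1.17.1 in Python 3.11.15.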

Additional observations from a re-analysis of the deposited data

Results flagged for a closer look

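Single far values were sought in 36 groups of 4 to 6 libraries (9 genes in 3 flow cells and in congestive HF). The search used normalised reads, not log2 values. In 5 groups the gap of a value to the next one was large against the range of the group. For normally distributed values, chance would give about 1 in 20 groups, or 1.8 of these. All 5 were high values on a linear scale, and the HF group shares libraries with the flow cells. The count of 5 can therefore not be read as an excess over 1.8. F3 was at 45.9 normalised reads (34 reads) in cat 22, with the other 3 libraries of flow cell C between 3.68 and 5.72. THBD was at 70.2 (52 reads) in the same library, with 18.4 to 25.5 in the others. F13A1 was at 70.1 (89 reads) in cat 35, with 7.89 to 17.8 in the other libraries of flow cell B. PROS1 was at 291 (370 reads) in cat 35, with 48.8 to 96.5 in the other HF cats. TFPI was at 13.4 (15 reads) in cat 36, with 6.81 to 7.89 in the other libraries of flow cell B. Cat 22 is one of the libraries without an assigned outcome, and cat 35 held the highest sum of macrophage and monocyte markers, 2604. The part of these in the values was not tested.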

How the results depend on the processing

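Over 513 alternatives for the 9 genes (refits, and Spearman's rho for the traits), 480 kept the direction, 32 changed sign, 1 was 0 (Spearman's rho of THBD with age) and 0 passed the threshold, with smallest adjusted p-values of 0.639 for ATE against HF, 0.109 for flow cells, 0.999 for fibrosis and 0.254 for age. The alternatives share most of their libraries and are not independent, so a kept direction is not separate support. The count of genes called between ATE and HF was 1 with DESeq2 (KERA) and 0 to 1 when each cat was left out (APOA1 without cat 37). Between flow cells it was 829 with DESeq2 and 51 to 501 when each library was left out. TFPI in ATE against HF changed sign to 0.18 with edgeR, 0.17 with DESeq2 and 0.25 with library 22 as ATE. F8 between flow cells became 0.027 with edgeR, 0.019 with DESeq2 and 0.080 without libraries 22 and 29. The F3 slope on fibrosis became -0.045 with flow cell as a covariate, and Spearman's rho had the opposite sign to the slope for PLAT with fibrosis (0.0238), PLAT with age (0.10) and ENTPD1 with age (-0.05). Leaving out single cats turned the sign of small values: in ATE against HF, TFPI ran from -0.94 to 0.76, and between flow cells F8 ran from -0.38 to 0.32 and ENTPD1 from -0.65 to 0.094. For slopes on fibrosis the ranges were -0.012 to 0.15 (VWF), -0.051 to 0.021 (F8), -0.044 to 0.15 (F3), -0.30 to 0.0090 (TFPI), -0.37 to 0.045 (PLAT), -0.026 to 0.14 (ENTPD1) and -0.10 to 0.049 (PROS1). For slopes on age they were -0.027 to 0.025 (THBD), -0.061 to 0.065 (PLAT), -0.026 to 0.037 (ENTPD1) and -0.038 to 0.023 (PROS1). Differences between ATE and HF that kept their sign ran from 0.22 to 0.71 (F8), 0.47 to 1.504 (PLAT), 0.10 to 0.73 (THBD), 0.12 to 0.63 (PROS1), -1.30 to -0.55 (F13A1) and -0.42 to -0.016 (VWF). The cause of these changes was not tested. No paired analysis was possible because the replicate numbers in the labels are cat numbers, which no groups share. Flow cell, which ATE and HF cats do share, was fitted as a covariate instead, and it called 0 genes between them.

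Depth is a limit: TFPI, PLAT and ENTPD1 had at most 19 reads in any library, and for ENTPD1 counting error by itself gives a coefficient of variation of 36.5% where 58.8% was observed. There were 3 ATE cats, and their outcome comes from the cohort table. Gene length and strand were not checked.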
